A study of Mus musculus with 4 samples.

Results

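The small leucine-rich proteoglycans are secreted matrix proteins, and 10 of their genes were followed here in mouse cochleae: Dcn, Bgn, Fmod, Lum, Kera, Prelp, Omd, Ogn, Epyc and Chad. They were taken by gene symbol from a list of the family, which was chosen with earlier results of these data known. All 10 were found among the 17816 genes with a value and among the 13966 genes tested. In 2 libraries, called knockout here, the mice had the genotype Zbtb20 F/F with a cre driver, and in the other 2, called wild type, they had Zbtb20 +/+ with the same kind of driver. Zbtb20 encodes a zinc finger transcription factor. All 4 libraries were from C57BL/6 mice at postnatal day 10, and all 4 carried a cre driver, which the labels spell FoxG2-cre for replicate 2 and FoxG3-cre for replicate 3 of each genotype. The labels do not say in which cells the driver acts, which part of Zbtb20 is removed, or how many animals gave each library, so the p-values rest on the spread between these libraries, which may be technical. RNA was from the cochlea as a piece of tissue, in which fewer cells of a type and less RNA per cell cannot be told apart.

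These proteins have a curved core of leucine-rich repeats that binds collagen fibrils and limits or spaces their growth. Class I members, decorin and biglycan, carry chondroitin or dermatan sulfate chains. Class II members such as fibromodulin, lumican and keratocan can carry keratan sulfate, and classes III and IV hold smaller groups including epiphycan, osteoglycin and chondroadherin. In the cochlea such proteins lie in fibrous, cartilaginous and bony matrix, and epiphycan is known from the supporting cells of the sensory epithelium. The genes lie in clusters: Dcn, Lum, Kera and Epyc on chromosome 10, Ecm2, Aspn, Omd and Ogn on chromosome 13, and Optc, Prelp and Fmod on chromosome 1, while Bgn and Chad lie apart from them.

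Upstream sequence was held for 8 of the 10 members in RefSeq (GRCm38.p6), and that of 3 members whose levels changed is shown, as the 250 bases before the start on the plus strand. Capitals mark matches, on either strand, to TATAAA (the TATA box), to TGANTCA (the AP-1 site) or to GGGCGG (the GC box). Fmod and Ogn were higher and Chad lower in the knockout. The windows are chr1:134037004-134037253 for Fmod, chr13:49607765-49608014 for Ogn and chr11:94564797-94565046 for Chad.
Fmod: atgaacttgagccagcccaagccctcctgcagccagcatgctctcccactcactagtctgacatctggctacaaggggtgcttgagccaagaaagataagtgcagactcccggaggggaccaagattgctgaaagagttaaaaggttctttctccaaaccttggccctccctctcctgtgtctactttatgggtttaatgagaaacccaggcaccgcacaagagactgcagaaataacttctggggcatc
Ogn: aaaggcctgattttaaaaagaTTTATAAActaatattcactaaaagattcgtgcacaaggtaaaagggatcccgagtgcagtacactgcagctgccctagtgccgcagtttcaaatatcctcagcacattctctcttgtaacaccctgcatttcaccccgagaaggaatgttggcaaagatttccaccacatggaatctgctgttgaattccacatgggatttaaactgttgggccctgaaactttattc
Chad: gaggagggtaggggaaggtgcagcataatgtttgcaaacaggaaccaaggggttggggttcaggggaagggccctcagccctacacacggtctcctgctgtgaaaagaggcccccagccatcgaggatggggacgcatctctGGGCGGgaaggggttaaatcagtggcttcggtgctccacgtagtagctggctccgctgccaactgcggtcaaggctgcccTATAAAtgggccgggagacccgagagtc
The Chad window held a TATA box that began 28 bases before the start and a GC box 108 bases before it. The Ogn window held the TATA letters on both strands in overlap, the first of them 229 bases before the start, and the Fmod window held none of the 3 motifs. Of the windows not shown, that of Kera, which also rose, held none of the 3 motifs, nor did those of Prelp, Omd and Epyc. The Bgn window held GC box letters 34, 10 and 6 bases before the start. No upstream sequence was held for Dcn or Lum. Of 32536 windows of this length upstream of mouse genes, 12.3% held TATAAA, 6.73% TGANTCA and 33.0% GGGCGG. These matches describe the letters and show no binding.

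Levels are in FPKM, which divides the fragments of a gene by its transcript length and by the depth of the library. The steps between low values placed the depth near 17900000 and 19400000 fragments in the knockout libraries and near 17950000 and 18600000 in the wild-type libraries. At that depth Kera, the member with the fewest fragments, had about 424 in its lowest library. Zbtb20 itself was at 7.35 and 7.41 FPKM in the knockout libraries, against 10.94 and 10.67 FPKM in the wild-type libraries (adjusted p = 0.0394, limma). Zbtb20 did not pass without wild-type replicate 2 or 3 (adjusted p = 0.0885 and 0.083), without knockout replicate 2 or 3 (0.316 and 0.264), or without the filter on low values (0.0766). Of genes that mark cochlear cells, Otos of fibrocytes was at 4635.5 to 7720.2 FPKM and Ocm of outer hair cells at 130.8 to 159.7 FPKM over the 4 libraries. Wild-type replicate 2 stood apart by skeletal muscle genes, whose 12 markers reached 547.5 FPKM in sum there, against 78.4 FPKM in wild-type replicate 3 and 18.6 and 35.0 FPKM in the knockout libraries. In wild-type replicate 3 nearly all of that sum was Pvalb (75.7 FPKM), which neurons also express.

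In knockout cochleae 4 of the 10 genes rose (Dcn, Kera, Fmod and Ogn) and 1 fell (Chad), while Bgn, Lum, Prelp, Omd and Epyc did not pass the test. The test was limma on log2(FPKM + 1) with Benjamini-Hochberg adjustment over all 13966 genes and a threshold of 0.05, by which 2.38% of genes were called higher, 2.04% lower and 4.43% in either direction (333 and 285 genes, or 243 and 348 after each library was rescaled by its median of ratios). The median log2 fold change was 0.39 over the members and 0.06 over all genes tested. In 9 members both knockout libraries lay above both wild-type libraries, which was so for 37.9% of genes, and in 1 they lay below, which was so for 17.1% (55.0% for either). All of these 5 calls needed both knockout libraries. Without knockout replicate 2 or knockout replicate 3, 0 members were called (limma; 7 of 10 at an unadjusted p under 0.05 in each case, where 11.5% and 12.8% of all genes were), and 1 gene was called among all those tested (0.00715% and 0.00717%). Without wild-type replicate 2 or 3, 4 and 3 members were called, against 3.84% and 4.15% of genes. The share of all genes called was 4.53% and 4.04% with pseudocounts of 0.1 and 5, 4.81% with a minimum mean of 1 FPKM, 4.23% after the rescaling, 3.72% without the intensity trend, 1.51% without a filter on low values and 16.8% with a term for the replicate number.

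**Figure D1:**
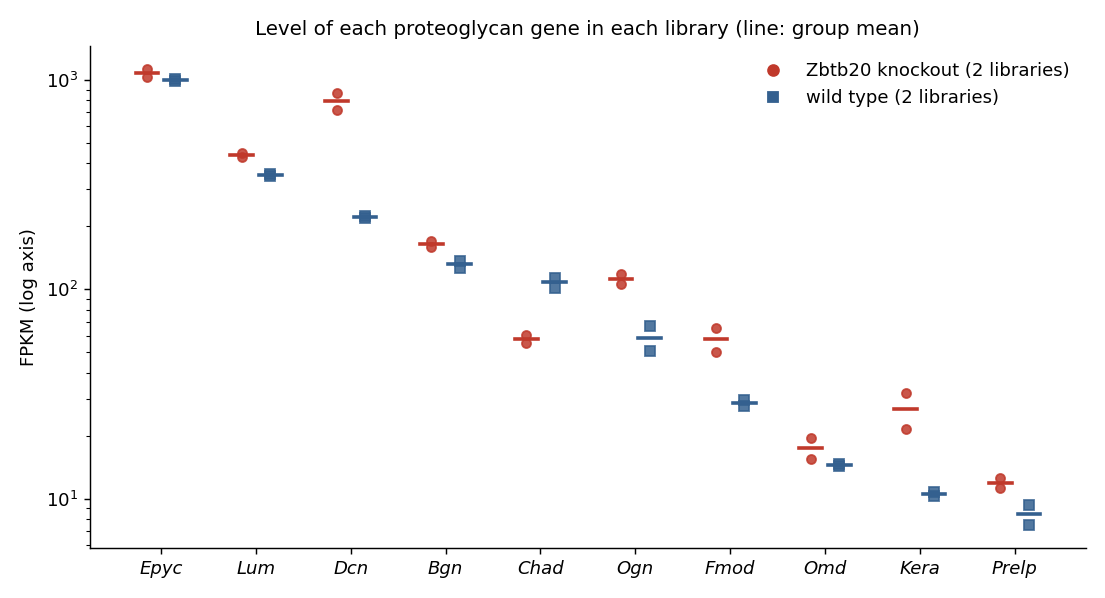
FPKM of each of the 10 genes (log axis) in the 2 knockout libraries (circles) and the 2 wild-type libraries (squares), ordered by wild-type level, with a line at each group mean. Dcn stands at 721.6 and 868.6 FPKM in the knockout, above Lum in both libraries, and Chad is the gene whose knockout libraries lie below the wild type.

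Dcn encodes decorin, which binds collagen fibrils and also binds transforming growth factor beta and several receptor kinases. It was at 721.6 and 868.6 FPKM in knockout replicates 2 and 3, against 223.3 and 219.7 FPKM in wild-type libraries. The groups did not overlap, and the wild-type libraries were close together while the knockout libraries lay further apart. Dcn rose 3.59-fold by mean FPKM, a log2 fold change of 1.83 ± 0.11 (SE, n = 2 per group; adjusted p = 0.00448, limma). By level it was the gene of rank 35 among 17816 in the knockout and of rank 219 in the wild type.

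Bgn encodes biglycan, the other member of class I, which resembles decorin in its core and carries an extra chain. It was at 158.5 and 170.9 FPKM in knockout libraries and at 136.0 and 127.1 FPKM in wild-type libraries. The groups did not overlap, and the log2 fold change of 0.32 did not pass (95% interval 0.13 to 0.52, adjusted p = 0.0934, limma). The ratio of Dcn to Bgn FPKM was 4.55 and 5.08 in knockout libraries and 1.64 and 1.73 in wild-type libraries. Both genes are widely expressed in connective tissue. Their log2 fold changes here were 1.83 for Dcn and 0.32 for Bgn, and the difference between them was not tested.

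Among class II genes, Kera and Fmod rose. Kera encodes keratocan, a keratan sulfate proteoglycan best known from the cornea. It was at 21.5 and 32.2 FPKM in knockout libraries, against 10.4 and 10.7 FPKM in wild-type libraries. The rise was 2.54-fold, with a log2 fold change of 1.24 ± 0.19 (SE, n = 2 per group; adjusted p = 0.0328, limma), and knockout replicate 3 was the highest library. Fmod encodes fibromodulin, which binds collagen at the site that lumican also uses. It was at 50.4 and 65.3 FPKM in knockout libraries and at 29.6 and 27.6 FPKM in wild-type libraries. Fmod rose 2.02-fold, and again the knockout libraries were further apart than the wild-type libraries (log2 fold change 0.98 ± 0.13, adjusted p = 0.0258, limma). Leaving out wild-type replicate 2 ended the call for Kera (adjusted p = 0.0529, limma), and leaving out wild-type replicate 3 ended those for Kera and Fmod (0.0593 and 0.0553).

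Lum, Prelp and Omd, the other class II genes, did not pass. Lum encodes lumican, which regulates fibril diameter in the cornea, skin and tendon. It was at 447.8 and 430.6 FPKM in knockout libraries, against 356.6 and 348.8 FPKM in wild-type libraries. Its groups did not overlap, and its log2 fold change was 0.32 (95% interval 0.14 to 0.49, adjusted p = 0.0789, limma). Prelp encodes a protein whose basic end binds heparan sulfate. It was at 12.6 and 11.3 FPKM in knockout libraries and at 9.38 and 7.51 FPKM in wild-type libraries (log2 fold change 0.46, 95% interval 0.14 to 0.78, adjusted p = 0.12, limma). Of the exon bases of Prelp 9.68% overlap the transcript model Gm15851 on the other strand. Omd encodes osteomodulin, a keratan sulfate proteoglycan of mineralized tissue. It was at 15.6 and 19.6 FPKM in knockout libraries and at 14.6 and 14.3 FPKM in wild-type libraries, with an interval of the log2 fold change that spans 0 (-0.05 to 0.56, adjusted p = 0.284, limma).

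In class III, Ogn rose and Epyc did not pass. Ogn encodes osteoglycin, also called mimecan, found in bone and fibrous connective tissue. It was at 106.1 and 118.8 FPKM in knockout libraries, against 67.0 and 50.7 FPKM in wild-type libraries. Here the wild-type libraries were the more spread, and the groups did not overlap. Ogn rose 1.91-fold, with a log2 fold change of 0.93 ± 0.15 (SE, n = 2 per group; adjusted p = 0.0349, limma). Epyc encodes epiphycan, also known from growth plate cartilage. It was the highest member in every library, at 1032.2 and 1130.8 FPKM in knockout libraries and at 1005.8 and 985.1 FPKM in wild-type libraries. The log2 fold change of Epyc was 0.12 with a 95% interval of -0.10 to 0.33 (adjusted p = 0.46, limma), so a rise as large as that of Ogn lies outside its interval. Of the exon bases of Epyc 40.6% overlap the transcript model Gm10754 on the other strand, and no source used here says whether fragments were counted by strand.

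Chad, the class IV gene, fell. It encodes chondroadherin, a cartilage protein that binds collagen and an integrin and that, unlike most of the family, carries few or no sugar chains of the glycosaminoglycan kind. Chad was at 55.6 and 60.4 FPKM in knockout libraries, against 113.7 and 102.0 FPKM in wild-type libraries. Every knockout library lay below every wild-type library, and the wild-type mean was 1.86 times that of the knockout (log2 fold change -0.88 ± 0.09, SE, n = 2 per group; adjusted p = 0.0117, limma). Chad lies within Acsf2, a gene on the other strand, with 0 shared exon bases. Acsf2 was at 25.2 and 25.0 FPKM in knockout libraries and at 24.9 and 26.9 FPKM in wild-type libraries (adjusted p = 0.76, limma).

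**Figure D2:**
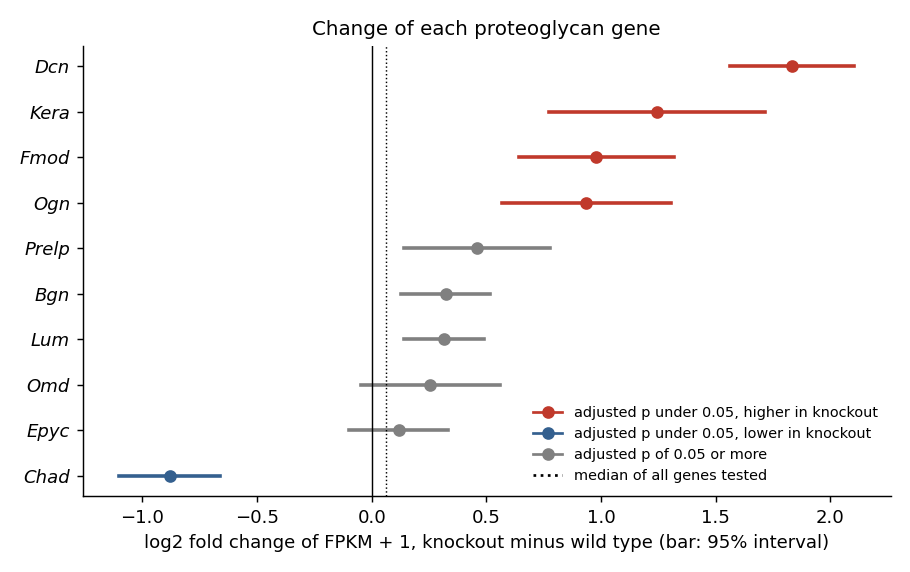
Log2 fold change of FPKM + 1, knockout minus wild type, for each gene (dot) with its 95% interval (bar) from limma; the dotted line is the median of all genes tested, at 0.06. Dcn, Kera, Fmod and Ogn lie between 0.93 and 1.83, Chad lies at -0.88, and the 5 genes in grey did not pass the threshold.

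Levels per length ranged widely within the family, with Epyc, Lum and Dcn together making up most of its FPKM. The summed FPKM of the 10 genes was 2621.8 and 2908.5 in knockout libraries and 1966.3 and 1893.6 in wild-type libraries, 1.43 times as high in the knockout. Dcn made up 27.5% and 29.9% of that sum in knockout libraries and 11.4% and 11.6% in wild-type libraries. Epyc made up 39.4% and 38.9% in knockout libraries and 51.1% and 52.0% in wild-type libraries. Of the difference between the mean sums, 835.2 FPKM, Dcn alone gave 68.7%. By class, the summed FPKM was 2.72 times as high in the knockout for class I, 1.33 times for class II and 1.13 times for class III, while class IV, which is Chad alone, was 0.538 times as high. By FPKM the order in both knockout libraries was Epyc, Dcn, Lum, Bgn and Ogn, then Chad and Fmod, whose values overlapped, then Kera, Omd and Prelp. In both wild-type libraries it was Epyc, Lum, Dcn, Bgn, Chad, Ogn, Fmod, Omd, Kera and Prelp, with no overlap between neighbours. Dcn and Lum thus changed places, with ratios of Dcn to Lum of 1.61 and 2.02 in knockout libraries and 0.63 in each wild-type library, as did Ogn and Chad, and Kera and Omd.

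**Figure D3:**
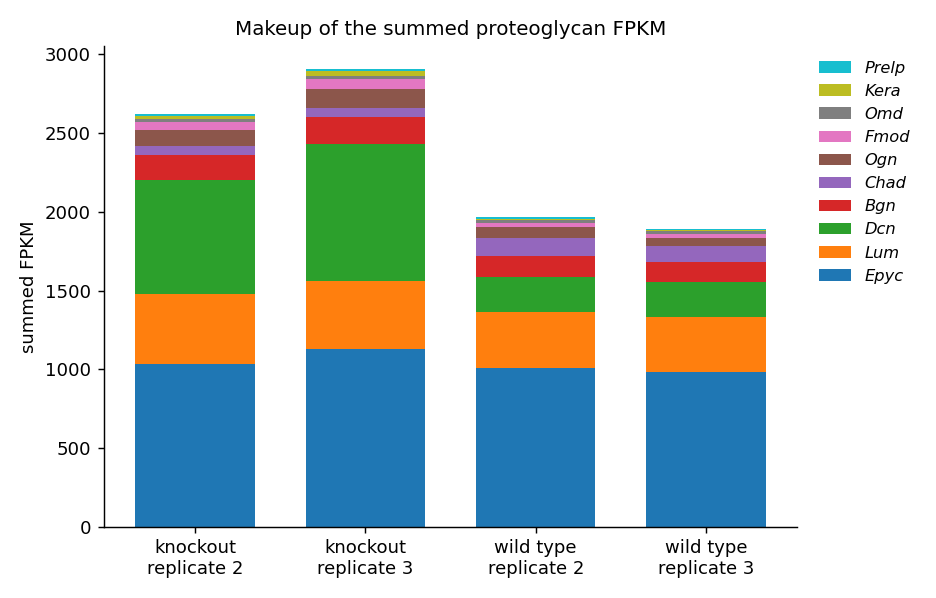
Summed FPKM of the 10 genes in each library, stacked by gene. The Dcn block takes 27.5% and 29.9% of the 2 knockout bars and 11.4% and 11.6% of the 2 wild-type bars, while the Epyc block is of similar height in all 4.

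The estimated changes of genes next to each other are given here in genome order. On chromosome 10 the 4 members span 202.4 kb in the order Dcn, Lum, Kera and Epyc, and their log2 fold changes in that order were 1.83, 0.32, 1.24 and 0.12. Thus a gene that did not pass, Lum, lies between 2 that rose. The nearest gene with a value before Dcn was Btg1, 856686 bases away (0.31 ± 0.08, adjusted p = 0.119, limma). The nearest after Epyc was Atp2b1, 1.23e+06 bases away (0.06 ± 0.08, adjusted p = 0.689, limma). On chromosome 13 the 119.7 kb from Ecm2 to Ogn hold 4 genes of the family, of which Ogn rose and Omd, 15402 bases before it, did not pass. The ratio of Ogn to Omd FPKM was 6.82 and 6.07 in knockout libraries and 4.58 and 3.54 in wild-type libraries. On chromosome 1 Fmod rose while Prelp, 107151 bases away on the other strand, did not pass. Whether neighbours differ from each other in their change was not tested.

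**Figure D4:**
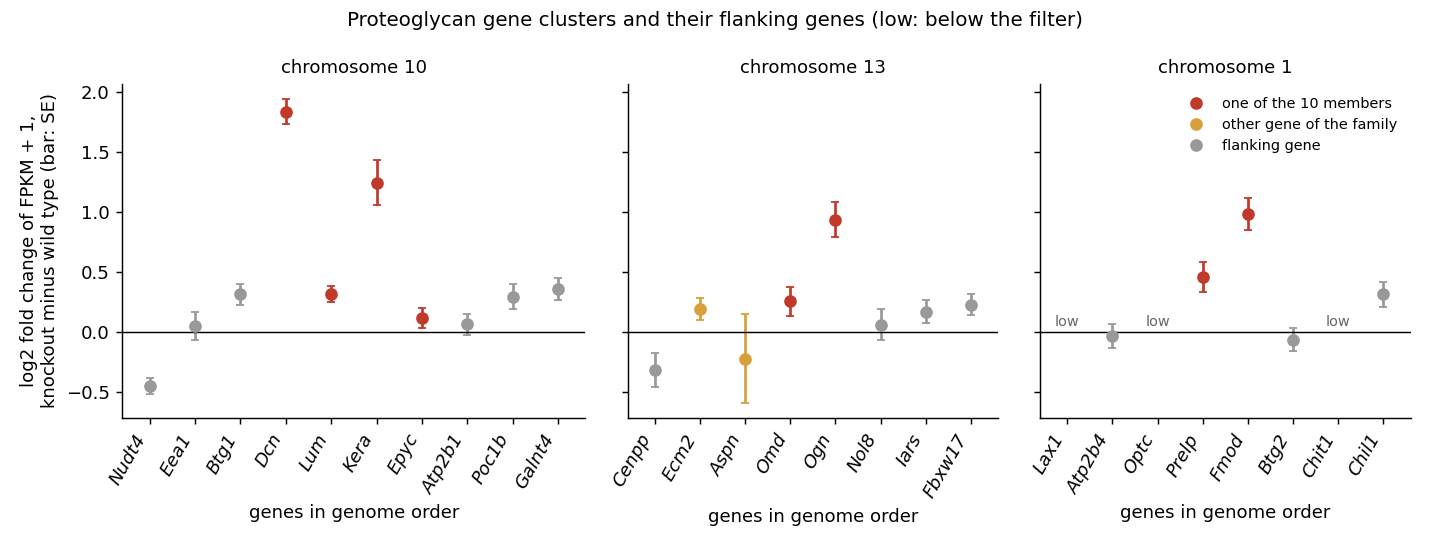
Log2 fold change of FPKM + 1, knockout minus wild type (dot, with SE), for genes in genome order around the clusters on chromosomes 10, 13 and 1, with the 8 members of these clusters in red, other family genes in yellow and flanking genes in grey. Dcn at 1.83 and Kera at 1.24 stand above Lum at 0.32 and Epyc at 0.12 in the same cluster.

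Of 8 further genes of the family, 5 were tested and 0 were called (limma; 2 at an unadjusted p under 0.05, as were 22.0% of all genes tested), with a median log2 fold change of 0.38. Chadl, which encodes a chondroadherin-like protein of cartilage, was the highest of them. It was at 131.2 and 95.8 FPKM in knockout libraries and at 97.2 and 75.8 FPKM in wild-type libraries, with overlapping groups. Aspn, the asporin gene and the class I neighbour of Omd, was at 8.33 and 7.44 FPKM in knockout libraries and at 14.5 and 5.92 FPKM in wild-type libraries, where wild-type replicate 2 was high. The other tested genes were Ecm2, Tsku and Podn, while Optc, Nyx and Podnl1 were below the filter of 0.5 FPKM. Without wild-type replicate 2 or without wild-type replicate 3, 1 of these further genes was called.

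The enzymes that build the sugar chains were mostly not called. Among the chondroitin and dermatan sulfate enzymes 0 of 22 rose and 2 fell, against 2.38% and 2.04% of all genes. Their median was 0.06, equal to that over all genes to 2 decimals. Of the 22, 7 had an unadjusted p under 0.05 (limma), against 22.0% of all genes. In 7 both knockout libraries lay below both wild-type libraries (17.1% of all genes), and in 8 they lay above (37.9%). Chst11, which encodes a sulfotransferase that acts on the 4-position of chondroitin, was at 41.3 and 44.5 FPKM in knockout libraries and at 67.4 and 73.4 FPKM in wild-type libraries (log2 fold change -0.70 ± 0.08, adjusted p = 0.0159, limma). Ust, which encodes the uronyl 2-sulfotransferase, was at 19.8 and 18.3 FPKM in knockout libraries and at 27.8 and 27.4 FPKM in wild-type libraries (-0.52 ± 0.08, adjusted p = 0.0317). Both genes were lower in every knockout library than in any wild-type library. Of 8 keratan sulfate enzyme genes 7 were tested and 0 were called (limma; 4 at an unadjusted p under 0.05, against 22.0% of all genes), with a median of -0.12. Chst1, the keratan sulfate sulfotransferase gene, was at 30.4 and 29.1 FPKM in knockout libraries and at 21.4 and 23.1 FPKM in wild-type libraries (adjusted p = 0.0561, limma). B3gnt2, which encodes an enzyme that extends lactosamine chains, was at 17.2 and 18.8 FPKM in knockout libraries and at 23.4 and 23.1 FPKM in wild-type libraries (adjusted p = 0.0789). Without wild-type replicate 2 or 3 Ust did not pass (adjusted p = 0.0702 and 0.071, limma), nor without the intensity trend or the filter on low values (0.0527 and 0.0587), and the calls for Chst11 and Ust without either knockout library (0.161 to 0.243).

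Of 22 genes for fibrillar and fibril-associated collagens and their crosslinking enzymes, 1 rose and 0 fell, with a median of -0.07. In 10 of the 22 both knockout libraries lay below both wild-type libraries (17.1% of all genes), and in 4 they lay above (37.9%). An unadjusted p under 0.05 (limma) was found for 7, against 22.0% of all genes. Col14a1, the gene of a collagen found on the surface of type I collagen fibrils, was at 18.6 and 17.6 FPKM in knockout libraries and at 12.1 and 9.76 FPKM in wild-type libraries (log2 fold change 0.68 ± 0.12, adjusted p = 0.0436, limma). It did not pass after each library was rescaled by its median of ratios (adjusted p = 0.0647), without the intensity trend (0.0613), without the filter on low values (0.0895), without wild-type replicate 3 (0.0636), or without knockout replicate 2 or 3 (0.345 and 0.266). Col1a1, the main fibril gene of bone and fibrous tissue, was chosen for mention after its values were seen. It was at 74.4 and 74.0 FPKM in knockout libraries and at 567.7 and 100.7 FPKM in wild-type libraries, and so was high in wild-type replicate 2, the library with muscle transcripts. Without wild-type replicate 2 or without wild-type replicate 3, 3 of the 22 genes were called. Of 20 genes for binding partners and processing proteases, 19 were tested, of which 1 rose and 0 fell, with a median of -0.02. Egfr, the gene of a receptor kinase that decorin binds, was at 11.88 and 12.04 FPKM in knockout libraries and at 7.93 and 7.73 FPKM in wild-type libraries (0.55 ± 0.08, adjusted p = 0.029, limma). Leaving out any of the 4 libraries ended its call (adjusted p = 0.057 to 0.278), as did dropping the filter on low values (0.0618), and without wild-type replicate 3, 2 genes of the list were called.

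Markers of the cell types that could hold these genes were measured beside them, and their part in the proteoglycan changes was not tested. The 8 markers of spiral ligament fibrocytes and otic mesenchyme summed to 12352.2 and 13320.5 FPKM in knockout libraries and to 13788.7 and 13462.2 FPKM in wild-type libraries. Of these 1 rose (Otor) and 2 fell (Coch and Slc4a11), and 7 had an unadjusted p under 0.05 (limma), against 22.0% of all genes. Otor was at 4648.8 and 4668.0 FPKM in knockout libraries and at 2111.6 and 1916.5 FPKM in wild-type libraries. Otos moved the other way, at 4635.5 and 5337.3 FPKM in knockout libraries and at 7720.2 and 7622.0 FPKM in wild-type libraries (adjusted p = 0.0552, limma). For fibroblasts of fibrous connective tissue 0 of 10 markers were called (limma; 2 at an unadjusted p under 0.05, against 22.0% of all genes), with sums of 129.6 and 139.3 FPKM in knockout libraries and 158.3 and 130.5 FPKM in wild-type libraries. Without wild-type replicate 2, 2 of these fibroblast markers were called, and without wild-type replicate 3, 3 were. In 3 of the 10 both knockout libraries lay above both wild-type libraries (37.9% of all genes), in 0 they lay below, and in 7 the groups overlapped. The 2 with an unadjusted p under 0.05 (limma) were Twist2 and Dpp4, both higher in the knockout. Twist2 was at 8.96 and 8.24 FPKM in knockout libraries and at 5.74 and 3.29 FPKM in wild-type libraries. Pdgfra, a defining gene of fibroblasts, was among the 7, at 30.01 and 29.64 FPKM in knockout libraries and at 29.7 and 31.6 FPKM in wild-type libraries. Also among the 7, Postn, Dpt, Pi16, Mfap5 and Clec3b were higher in wild-type replicate 2, the library rich in muscle transcripts, than in wild-type replicate 3. Postn was at 39.9 and 7.06 FPKM in wild-type replicates 2 and 3, and at 12.5 and 9.65 FPKM in knockout libraries. Thy1, like Pdgfra, was lower in wild-type replicate 2 than in wild-type replicate 3. Among tendon and meningeal markers 0 of 4 and 0 of 5 tested were called (limma; 2 and 1 at an unadjusted p under 0.05), and without wild-type replicate 3, 1 tendon marker was. Of 10 tested chondrocyte markers 3 rose (Matn1, Matn4 and Snorc) and 1 fell (Acan), and of 10 osteoblast and osteocyte markers 0 rose and 2 fell (Mepe and Sost). Of these 10 bone markers 7 had an unadjusted p under 0.05 (limma), against 22.0% of all genes. In 9 both knockout libraries lay below both wild-type libraries (17.1% of all genes), and in 1 they lay above (37.9%). The median log2 fold change of the bone markers was -0.62. All 7 Schwann cell markers fell, with sums of 498.0 and 848.2 FPKM in knockout libraries and 6976.0 and 3871.5 FPKM in wild-type libraries, and all 7 strial markers rose, with sums of 431.0 and 386.6 FPKM in knockout libraries and 150.8 and 138.9 FPKM in wild-type libraries. As for the members, 0 of the calls in these marker lists stood without knockout replicate 2 or 3, and Sost did not pass without wild-type replicate 3 (adjusted p = 0.0837). The strial marker Cldn11 did not pass without wild-type replicate 2 or 3 (adjusted p = 0.0526 and 0.0917), after the rescaling (0.0652) or without the intensity trend (0.0643). Without the filter on low values Cldn11, Kcnq1, Matn4, Snorc, Otor and Sost did not pass (adjusted p = 0.0525 to 0.0863), and 4 of the 7 Schwann cell markers were called. The supporting and interdental cell list, in the region where Epyc is known, had 1 member higher (Tectb) and 1 lower (Emid1) of 9. Its median log2 fold change was -0.16, and 4 of the 9 had an unadjusted p under 0.05 (limma), against 22.0% of all genes. In 5 both knockout libraries lay below both wild-type libraries (17.1% of all genes), and in 2 they lay above (37.9%). Without wild-type replicate 2, the library rich in muscle transcripts, the log2 fold changes of Dcn, Kera, Fmod, Ogn and Chad were 1.84, 1.22, 1.03, 1.13 and -0.80. With all 4 libraries they were 1.83, 1.24, 0.98, 0.93 and -0.88. Whether muscle tissue bears on the changes of these members was not tested.

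**Figure D5:**
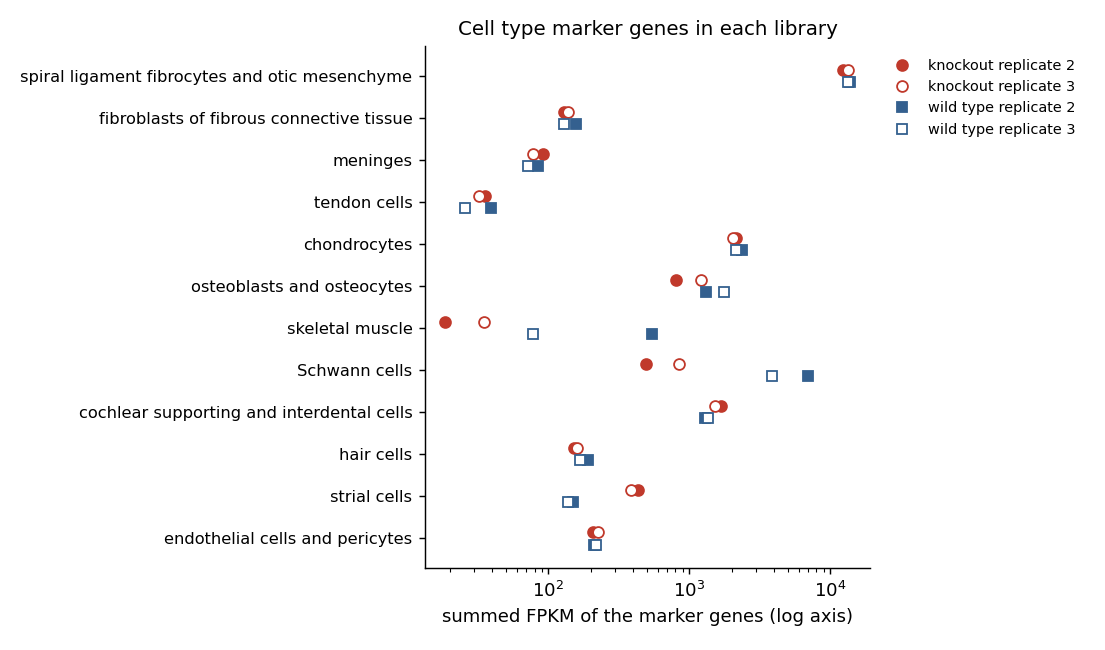
Summed FPKM (log axis) of each list of cell type markers in each library, with knockout libraries as circles and wild-type libraries as squares, filled for replicate 2 and open for replicate 3. The fibroblast sums overlap between genotypes (129.6 and 139.3 in the knockout, 158.3 and 130.5 in the wild type), while the Schwann cell sums do not.

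For each called member, the genes outside the family whose profile over the 4 libraries was closest were found by the distance between centred log2(FPKM + 1) values, among genes of at least 10 FPKM on average. Closest to Dcn were Kctd14, Sema3c and Dnase1, at distances of 0.20, 0.21 and 0.25. Sema3c, which encodes a secreted semaphorin, was at 23.0 and 22.5 FPKM in knockout libraries and at 5.84 and 5.57 FPKM in wild-type libraries. Closest to Fmod were Fxyd3, Clec3a and Crispld1 (0.12, 0.16 and 0.19). Clec3a encodes a cartilage lectin and was at 94.4 and 117.0 FPKM in knockout libraries and at 56.3 and 58.0 FPKM in wild-type libraries. Closest to Kera were Gstm2, Asgr1 and Fxyd3 (0.20, 0.24 and 0.39), so Fxyd3 was named for both Kera and Fmod. Closest to Ogn were Mex3b, Rflna and Nqo1 (0.16, 0.20 and 0.23), and closest to Chad were Cav1, Secisbp2l and Cuedc2 (0.08, 0.13 and 0.15). Cav1, the caveolin-1 gene, was at 42.4 and 46.3 FPKM in knockout libraries and at 91.0 and 83.2 FPKM in wild-type libraries. With 4 libraries many genes share such a profile, and the distances are a description.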

How the data were processed

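RNA of mouse cochleae was sequenced in 2 Zbtb20 knockout and 2 wild-type libraries, with groups taken from the sample labels. Each library has a file of gene-level FPKM made by the authors, per the file headers, with 20777 rows, of which 17816 held values. RSEM 1.2.12, HISAT2 2.0.4 and Bowtie2 2.2.5 are named together with mm10, per the submitters' processing notes; their roles and the use of strand are not given in the sources used here. A further FPKM column of each file was not used (4 in all). Depth was estimated as the value at which most low FPKM, times the length of 5169 single-transcript genes, gave whole fragments within 0.15 (71.5% to 73.7% did, where chance gives 30%), too few to treat them as counts. The 13966 genes that averaged 0.5 FPKM or more were fitted with limma 3.58.1 in R 4.3.3 on log2(FPKM + 1), with genotype alone in the model, a trend of variance on intensity, and Benjamini-Hochberg adjustment over all of them, two-sided, threshold 0.05. The pseudocount understates the change of low genes. The fit was tested on simulated data. Symbols, positions and upstream sequence were from RefSeq (GRCm38.p6, the assembly of mm10; 20705 IDs matched), and exon overlaps from GENCODE vM21. The members and lists were chosen with earlier results of these data known. Named genes are the 10 members, the called genes of each list of related genes (up to 6 by p) or, where none was called, its 2 highest, and the 3 genes closest in profile to each called member; marker genes and Col1a1 were named after their values were seen. Alternatives were other pseudocounts, filters, a rescaling, no trend, a replicate block, and leaving out each library.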

Additional observations from a re-analysis of the deposited data

How the results depend on the processing

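The log2 fold changes of the 10 members kept their sign under all 11 alternatives. As the groups overlapped in none of the members, only the rescaling could have changed a sign. With pseudocounts of 0.1 and 5, a minimum mean of 1 FPKM, or rescaling by the median of ratios, the 5 members called were Dcn, Kera, Fmod, Ogn and Chad. Without the intensity trend Ogn did not pass (adjusted p = 0.0551, limma). Without the filter on low values 266 genes and 2 members (Dcn and Chad) were called, against 618 and 5. Leaving out 1 library gave 1 to 580 genes and 0 to 4 members called, with 0 members without knockout replicate 2 or 3 and 3 without wild-type replicate 3. The fold of the summed FPKM, 1.43, ran from 1.36 to 1.51 over these and the rescaling. With a replicate block 2353 genes and 8 members were called, Bgn, Lum and Prelp being added. Same-numbered libraries deviated together (correlation 0.41 across 13043 genes). The labels spell the cre driver FoxG2-cre for replicate 2 and FoxG3-cre for replicate 3, and whether this bears on the shared deviation was not tested. Nothing in the labels ties the replicate numbers to a litter or day, and there are only 2 of them. With 2 libraries per genotype, small changes such as those of Lum and Bgn were not resolved.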

Other observations

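Among the genes that flank the members within 3 places in genome order and were tested, 2 were called. Of all genes tested 4.43% were called. No such share was worked out for the flanking genes, which include the family genes Ecm2 and Aspn, so the count is a description. Nudt4, before Dcn on chromosome 10, was at 55.9 and 57.6 FPKM in knockout libraries and 76.7 and 78.8 FPKM in wild-type libraries (adjusted p = 0.0298, limma). It is not close to Dcn: it ends at base 95564146, and Dcn starts at base 97479500. Pnck, after Bgn on chromosome X, was at 8.92 and 8.75 FPKM in knockout libraries and 4.56 and 5.40 FPKM in wild-type libraries (adjusted p = 0.0305, limma). Bgn ends at base 73495936, and Pnck starts at base 73655992.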
